A study of Danio rerio with 6 samples.

Results

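The complement system is a cascade of plasma proteins that marks microbes and damaged cells and punches pores in their membranes. It was followed here in zebrafish (Danio rerio) larvae that lack functional hspd1, the gene of the mitochondrial chaperonin HSP60. The members are the genes whose symbol is one of 33 named complement components and regulators, together with every gene whose symbol begins with c3a., c3b. or cfhl. Of the 33 symbols 31 were found, c6 and cfi matched no gene by symbol, and the prefixes added c3a.4, c3a.5 and cfhl5. This gave 34 members among 25859 genes. Of these, 29 had enough reads to be tested, and the 3 C1q genes, c3a.5 and cfhl3 did not.

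Expression was measured by poly(A)-selected RNA sequencing at 5 days post fertilization (dpf). The controls were hspd1+/+ and the knockouts hspd1-/-, all from in-crosses of hspd1+/- carriers of the F4 generation of 1 knockout line, so both groups share that background. Each group has 3 libraries, each made from the pooled bodies of 5 larvae after a piece of the tail fin had been taken for genotyping. Levels are therefore those of the whole body, and fold changes give the knockout level over the control level, with 3 pools in each group (n = 3).

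Complement is started in different ways. C1q binds antibody-coated or dying cells and begins the classical pathway, while mannose-binding lectins with the MASP proteases begin the lectin pathway. Both cleave C4 and then C3, the central component, and factor B with factor D amplifies C3 cleavage in the alternative pathway. C5 to C9 then assemble the membrane attack complex, and factor H and its relatives keep the cascade away from the body's own cells. In mammals hepatocytes make most of the plasma components and macrophages make C1q.

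The libraries held 18517874 to 20331675 counts, and complement genes took 0.125% to 0.140% of the counts for the controls and 0.0824% to 0.0926% for the knockouts. The targeted gene hspd1 stood at 124, 133 and 132 CPM (counts normalised to the size of the library) for controls 1, 2 and 3, and at 73.4, 67.9 and 82.3 CPM for knockouts 1, 2 and 3. It was lower in every knockout pool, though not absent from any (log2 fold change −0.79, SE 0.11, edgeR adjusted p = 0.00162).

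Transcripts of 4 of the 7 tested C3 genes, of c5, of factor B, of 4 of the 6 tested terminal genes and of 3 of the 5 tested factor H family genes fell in the knockout larvae. Of the 29 tested members 13 fell (44.8%), against 2.54% of all 21602 tested genes that fell past an adjusted p of 0.05 in edgeR's quasi-likelihood test. None of the 29 rose, against 1.47% of all genes. None was higher at an unadjusted p under 0.05 either, and DESeq2 and limma-voom gave 0 as well. The median log2 fold change of the tested members was −0.50, with a range from −3.41 to 0.33, and the median of all tested genes was −0.01. Fits with 1 pool left out filtered the genes anew, so the members tested in them were not the same 29. Over the members tested in each, the median was −0.29 without control pool 1 and −0.32 without knockout pool 3. These medians are therefore not directly comparable with −0.50. In 16 of the 29 the knockout pools were all below the control pools (10.6% of all tested genes), and in 1, CLU, they were all above (10.8% of all genes). When the filter on low counts was left out, so that all 34 members entered the test, 13 fell as well. Without knockout pool 2, 8 members passed. In RNA of whole bodies, fewer cells of a type and less RNA per cell cannot be told apart.

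**Figure D1:**
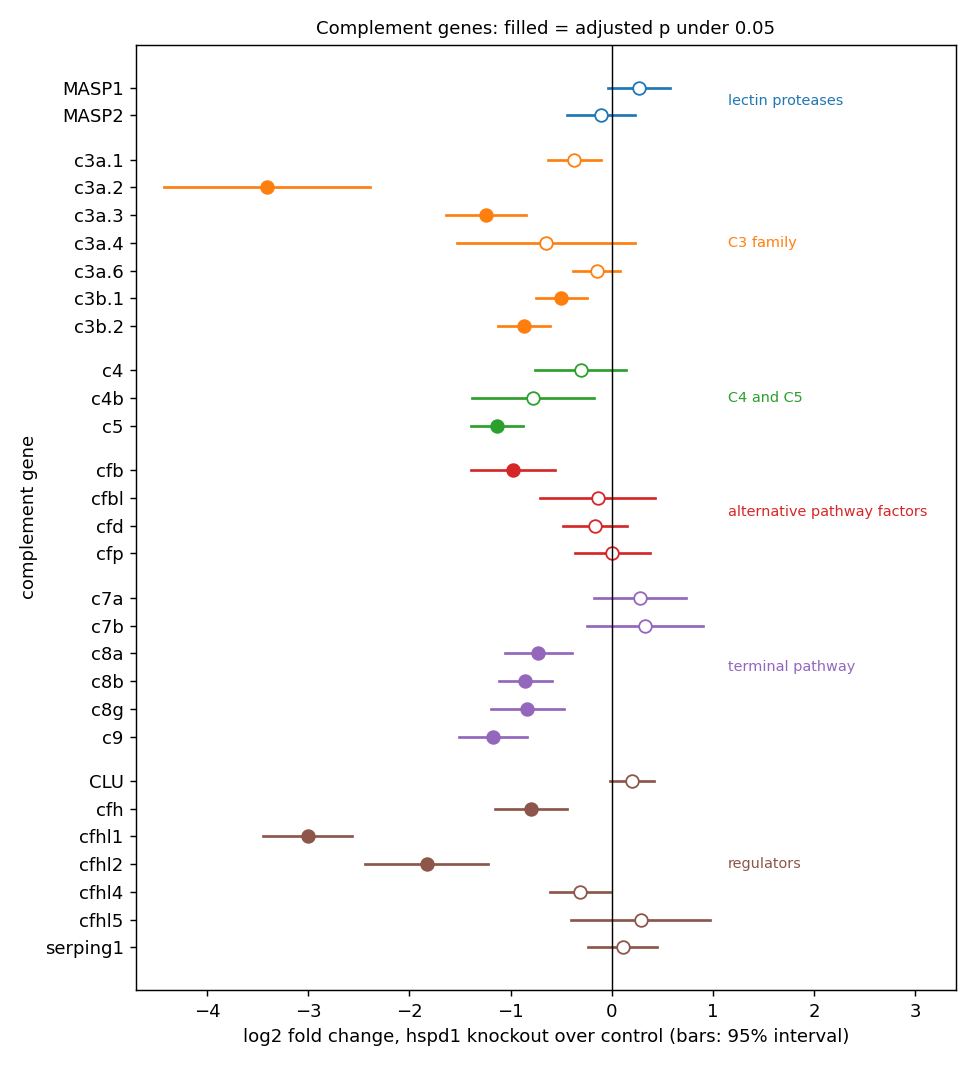
Log2 fold change of each of the 29 tested complement genes, knockout over control, on the x axis, with its 95% interval as a bar, grouped and coloured by role on the y axis. Filled points are the 13 genes that fell at an adjusted p under 0.05, from −0.50 (c3b.1) to −3.41 (c3a.2), and no point on the right of 0 is filled.

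The C3 genes code for forms of the central component, whose cleavage releases C3a and leaves C3b bound to the target. Zebrafish carry many copies, and 4 of the 7 tested copies fell. The copy c3a.2 (ENSDARG00000087359) stood at 108, 35.9 and 80.6 CPM for controls 1, 2 and 3, and at 10.2, 2.67 and 8.30 CPM for the knockouts. Control pool 2 was the lowest control but still above every knockout pool. The decrease was 10.6-fold (log2 fold change −3.41, SE 0.46, edgeR adjusted p = 0.00162), and the call held in all 14 alternative settings.

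The copy c3a.3 (ENSDARG00000052207) fell from 114, 86.8 and 70.6 CPM among controls to 45.5, 35.0 and 34.4 CPM among knockouts, again with no overlap. Its log2 fold change was −1.24 (SE 0.18, edgeR adjusted p = 0.00242). The 2 c3b genes fell as well. For c3b.2 (ENSDARG00000001818) the control pools read 65.8, 80.1 and 65.5 CPM and the knockout pools 36.6, 41.5 and 37.6 CPM, which is a log2 fold change of −0.87 (SE 0.12, edgeR adjusted p = 0.00153). For c3b.1 (ENSDARG00000093068) they read 82.2, 101 and 91.8 CPM against 66.1, 69.0 and 59.6 CPM, a smaller log2 fold change of −0.50 (SE 0.11, edgeR adjusted p = 0.0348). This call was the least stable of all. It did not pass with upper-quartile scaling (adjusted p = 0.0610), nor without control pool 2 or 3 (0.188 and 0.138) or knockout pool 1, 2 or 3 (0.0609, 0.0929 and 0.131), with edgeR in each case.

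The copy c3a.1 (ENSDARG00000012694) read 382, 322 and 307 CPM for the controls and 279, 255 and 249 CPM for the knockouts. All knockout pools were below all controls, yet the log2 difference of −0.37 (95% interval −0.63 to −0.11) did not pass (edgeR adjusted p = 0.135). For c3a.6 (ENSDARG00000043719), at 30.6 ± 2.99 CPM among controls and 27.6 ± 0.912 CPM among knockouts (mean ± SD, n = 3), the log2 difference was −0.15 with a 95% interval from −0.38 to 0.09. The copy c3a.4 was barely detected, with 70 reads summed over controls and 45 summed over knockouts, and entered the test through the reads of the controls. It did not pass (log2 difference −0.65, 95% interval −1.53 to 0.23). The copy c3a.5 had 2 reads among controls and 0 among knockouts, too few for a comparison.

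**Figure D2:**
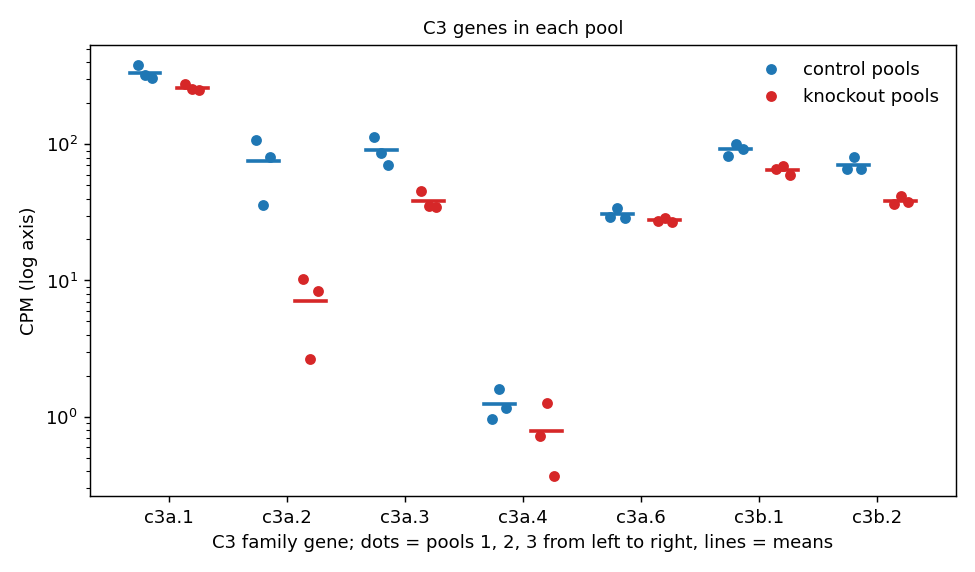
CPM (log axis) of the 7 tested C3 genes on the x axis in each control pool (blue) and knockout pool (red), with pools 1, 2 and 3 from left to right and horizontal lines at the means. The groups are farthest apart for c3a.2 (74.9 against 7.06 CPM on average) and close together for c3a.6 (30.6 against 27.6 CPM), and c3a.4 overlaps.

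The copies were also compared with each other within each pool, as ratios of raw counts that are free of library scaling. The log2 ratio of c3a.2 to c3a.1 was −1.82, −3.17 and −1.93 for controls 1, 2 and 3, and −4.77, −6.58 and −4.91 for the knockouts. The mean difference was −3.11, with no overlap (exact two-sided permutation p = 0.1, the smallest that 3 against 3 pools can give). The ratio of c3a.3 to c3a.1 differed by −0.86 and that of c3b.2 to c3b.1 by −0.37, both with no overlap and the same exact permutation p of 0.1. With Benjamini-Hochberg adjustment over the 6 ratios computed, these exact permutation p-values were 0.15. With 3 against 3 pools no ratio could reach 0.05, so this test cannot decide whether the ratios differ. The other ratios computed are given with their genes, and all 6 pairs were chosen after the values were seen. These copies are paralogs whose reads may be split between them in counting, so the value of a single copy is less certain than that of the family. The summed level of the 8 C3 genes was 696 ± 74.5 CPM among controls and 438 ± 25.1 CPM among knockouts.

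C4 and C5 are relatives of C3. C5, whose cleavage starts pore assembly, was read at 61.9, 71.4 and 66.8 CPM for the controls and at 33.2, 30.9 and 26.9 CPM for the knockouts. The gene c5 (ENSDARG00000021004) thus fell 2.2-fold, and the groups were far apart (log2 fold change −1.14, SE 0.12, edgeR adjusted p = 2.09e-04). The C4 genes carry the classical and lectin pathways. Levels of c4b (ENSDARG00000038424) were 39.7, 20.6 and 25.6 CPM among controls and 17.6, 10.5 and 22.1 CPM among knockouts, so the groups overlapped. Its log2 difference of −0.78 had a wide 95% interval (−1.39 to −0.17) and did not pass (edgeR adjusted p = 0.185). For c4 the difference was −0.31 (95% interval −0.75 to 0.14, edgeR adjusted p = 0.520). The within-pool log2 ratio of c4b to c4 overlapped between groups (mean difference −0.50, exact two-sided permutation p = 0.3).

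Of the genes of the alternative pathway 1 of 4 fell. Factor B, the protease subunit of the C3 convertase, is coded by cfb (ENSDARG00000055278), which read 50.1, 32.5 and 32.8 CPM among controls and 21.9, 15.7 and 21.2 CPM among knockouts. This 1.96-fold decrease (log2 fold change −0.97, SE 0.19) passed with an edgeR adjusted p of 0.0140, and did not without knockout pool 2 (0.0572). The related gene cfbl stood at 2.15 ± 0.397 CPM and 1.95 ± 0.525 CPM, and the within-pool ratio of cfb to cfbl overlapped between groups (mean log2 difference −0.79, exact two-sided permutation p = 0.3). In mammals the other factors of the pathway come largely from outside the liver: fat cells make factor D and white blood cells make properdin. The factor D gene cfd had a log2 difference of −0.16 (95% interval −0.48 to 0.15). The properdin gene cfp, which read 38.8, 36.2 and 23.6 CPM among controls and 31.2, 36.1 and 31.7 CPM among knockouts, had one of 0.01 (95% interval −0.37 to 0.38). Neither passed (edgeR adjusted p = 0.639 and 0.992).

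In the terminal pathway, 4 of 6 tested genes fell. C9, the subunit that forms the pore, was read at 174, 161 and 167 CPM for the controls and at 86.1, 79.8 and 55.9 CPM for the knockouts. The gene c9 (ENSDARG00000016319) was lower in all knockouts, with knockout pool 3 the lowest, and its log2 fold change was −1.18 (SE 0.15, edgeR adjusted p = 0.00115). C8 is built from 3 chains, which in zebrafish are coded by c8a, c8b and c8g, and all of them fell.

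The alpha chain gene c8a (ENSDARG00000039516) read 24.5, 33.5 and 29.9 CPM among controls and 20.9, 16.9 and 15.2 CPM among knockouts. The beta chain gene c8b (ENSDARG00000039517) read 29.4, 34.2 and 34.6 CPM against 20.2, 17.9 and 16.2 CPM. The gamma chain gene c8g (ENSDARG00000032098), a member of the lipocalin family, read 12.5, 13.9 and 16.0 CPM against 9.13, 8.41 and 6.20 CPM. Within each chain the groups did not overlap, and in each the lowest value was that of knockout pool 3. Log2 fold changes were −0.73 (SE 0.15), −0.85 (SE 0.12) and −0.84 (SE 0.16), with edgeR adjusted p-values of 0.0198, 0.00193 and 0.0154. The call for c8a was lost without control pool 2 (adjusted p = 0.0956) or 3 (0.0901) and without knockout pool 2 (0.0997) or 3 (0.0819). That for c8g was lost without control pool 3 (0.0900) or knockout pool 2 (0.0520), while c8b kept its call throughout.

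For C7, which anchors the growing complex in the membrane, both estimates were above 0. The gene c7a (ENSDARG00000042172) read 23.6, 13.3 and 15.8 CPM among controls and 20.9, 17.5 and 25.9 CPM among knockouts, and c7b (ENSDARG00000057121) read 5.84, 4.31 and 4.71 CPM against 4.20, 5.38 and 9.09 CPM. Both overlapped between groups. Their log2 differences were 0.28 (95% interval −0.17 to 0.74) and 0.33 (−0.25 to 0.90), and neither passed (edgeR adjusted p = 0.563 and 0.603). The interval of neither gene reaches the estimate of any C8 chain or of c9. Without knockout pool 3 the estimate for c7b was −0.037.

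**Figure D3:**
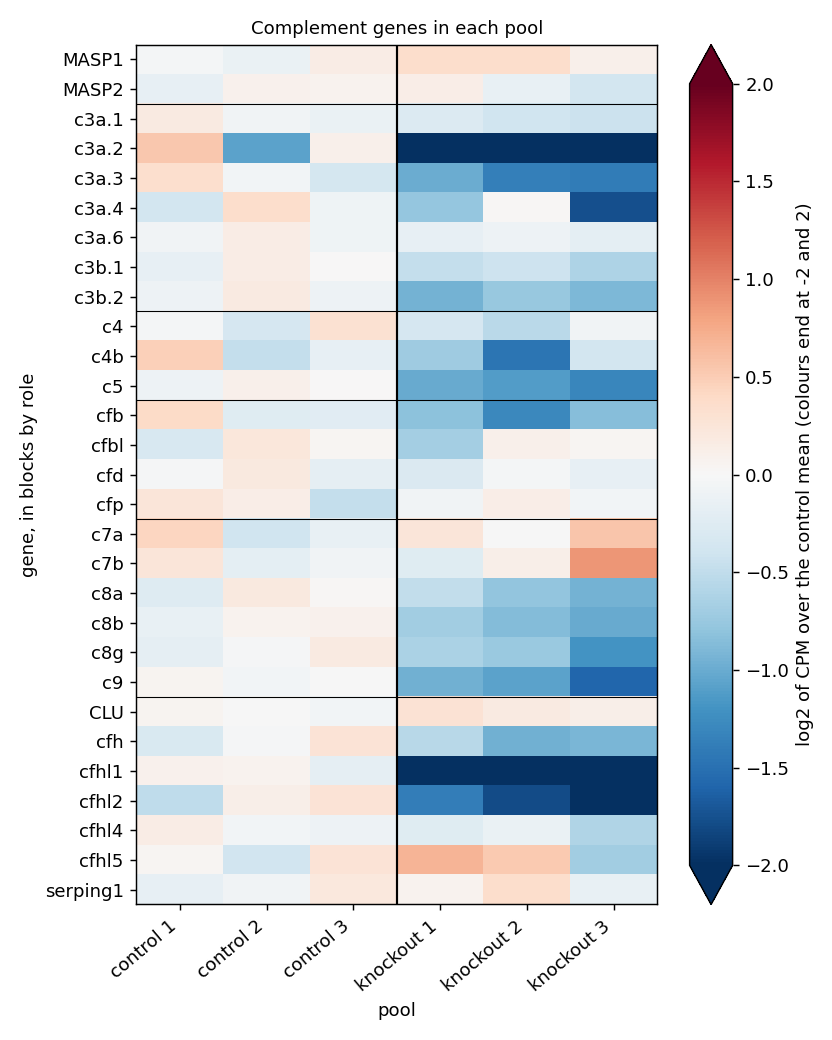
Level of each of the 29 tested complement genes (y axis, in blocks by role) in each pool (x axis), as log2 of CPM over the mean of the controls, with colours ending at −2 and 2. The 13 genes that fell are blue in all 3 knockout pools, darkest for c3a.2 and cfhl1, and c7b is red in knockout pool 3 (9.09 CPM against a mean of 4.95 CPM among controls).

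Factor H binds C3b and speeds its destruction, and the cfhl genes are its relatives. Of this family 3 of 5 tested genes fell. The gene cfh (ENSDARG00000100442) read 48.2, 58.4 and 72.1 CPM among controls and 40.5, 30.5 and 31.6 CPM among knockouts. The groups did not overlap (log2 fold change −0.80, SE 0.16, edgeR adjusted p = 0.0187), but the call was lost without control pool 2 (0.0527) or 3 (0.0900) and without knockout pool 2 (0.0997) or 3 (0.0747).

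The largest change of the family was that of cfhl1 (ENSDARG00000105212), at 6.75, 6.66 and 5.61 CPM among controls and 0.830, 0.836 and 0.683 CPM among knockouts. The pools of each group were close to each other, and the decrease was 8.04-fold (log2 fold change −3.01, SE 0.20, edgeR adjusted p = 1.09e-05). The knockout values rest on few reads (16, 16 and 13, against 133, 122 and 106 for the controls). Next came cfhl2 (ENSDARG00000103760), at 9.95, 15.3 and 17.0 CPM against 5.39, 4.08 and 2.36 CPM (log2 fold change −1.83, SE 0.27, edgeR adjusted p = 0.00307). The log2 difference of cfhl4 was −0.32 (95% interval −0.61 to −0.02), with all knockout pools below all controls. That of cfhl5 was 0.29 (−0.40 to 0.98), and neither gene passed (edgeR adjusted p = 0.288 and 0.720). The gene cfhl3 had 13 reads among controls and 8 among knockouts, a ratio of 0.610 with a 95% exact counting interval of 0.219 to 1.59. Within each pool, the log2 ratio of cfhl1 to cfh was −2.84, −3.13 and −3.68 among controls and −5.61, −5.19 and −5.53 among knockouts. The mean difference of −2.23 came with no overlap (exact two-sided permutation p = 0.1, and 0.15 after Benjamini-Hochberg adjustment over the 6 ratios).

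These genes lie side by side. In the RefSeq gene table of the assembly GRCz12tu the order is cfhl5, cfhl4, cfh, cfhl1, cfhl2, cfhl3, with no other protein-coding gene between them. The genes that fell past the threshold were the 3 adjacent ones from cfh to cfhl2. Beside cfh, cfhl4 was also lower in all knockout pools but did not pass. The same table places c3a.6, c3a.5 and c3a.1 next to each other and, after 3 other genes, c3a.2 and c3a.3, the pair that fell. The adjacent genes c8a and c8b both fell, as did the adjacent c3b.1 and c3b.2. The genes cfb and cfbl, with 1 gene between them, had log2 values of −0.97 and −0.14, and the second did not pass.

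**Figure D4:**
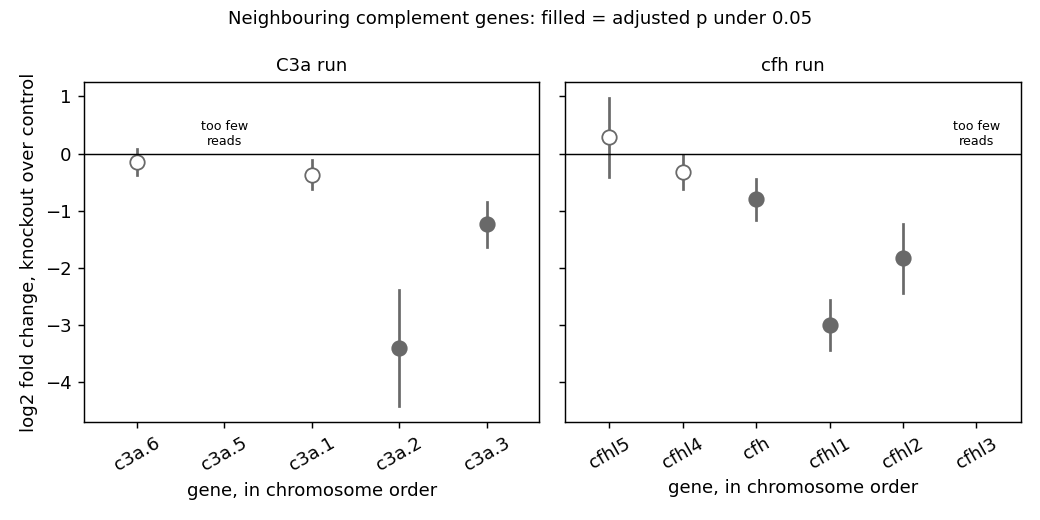
Log2 fold change with its 95% interval (y axis) for the c3a and the cfh genes in their order along the chromosome (x axis, not to scale, with 3 other genes between c3a.1 and c3a.2). Filled points passed an adjusted p of 0.05. The lowest values are those of c3a.2 (−3.41) and cfhl1 (−3.01), and the next tested member on either side of each was less far from 0.

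The other regulators and the lectin pathway proteases showed no call. CLU, the gene of clusterin, a chaperone-like plasma protein that binds the forming pore complex, was read at 49.1, 47.2 and 45.7 CPM among controls and at 57.7, 53.8 and 51.5 CPM among knockouts. All knockout pools were higher, by a log2 difference of 0.20 (95% interval −0.02 to 0.42) that did not pass (edgeR adjusted p = 0.376). The inhibitor of the C1 and MASP proteases, serping1, had a log2 difference of 0.11 (95% interval −0.23 to 0.45). MASP1 and MASP2, the proteases of the lectin pathway, had log2 differences of 0.27 (95% interval −0.04 to 0.58) and −0.11 (−0.44 to 0.23), with edgeR adjusted p-values of 0.393 and 0.785.

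Outside the members, a list of 44 written symbols of other complement genes matched 21 genes, of which 13 were tested. Of these 2 fell and none rose by edgeR (15.4% and 0%, against 2.54% and 1.47% of all tested genes). At an unadjusted p under 0.05 1 was higher, and DESeq2 and limma-voom gave the same counts of calls. The gene mbl2, a mannose-binding lectin that starts the lectin pathway, was higher in all controls (7.65 ± 1.94 CPM) than in any knockout pool (1.95 ± 0.455 CPM) (log2 fold change −1.97, SE 0.24, edgeR adjusted p = 7.96e-04). The gene of vitronectin, VTN, which binds the terminal complex in plasma, fell in 1 of its 2 copies (ENSDARG00000053831), from 82.9 ± 6.53 CPM to 56.4 ± 5.80 CPM (log2 fold change −0.56, edgeR adjusted p = 0.0203). The other copy (ENSDARG00000055388) had a log2 difference of −0.25 (adjusted p = 0.540 with edgeR). CPN1, the carboxypeptidase that trims C3a and C5a, stood at a log2 difference of −0.08 (95% interval −0.31 to 0.15). The median of the 13 genes was −0.03. The receptor genes C3AR1 and c5ar1 had 15 and 25 reads summed over controls and 17 and 30 summed over knockouts, too few to be tested.

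Members taken here as liver-made can be set beside the C1q genes, though where each is made was not measured in these whole bodies. With C1q, cfd, cfp and CLU left aside, 28 members remain, of which 26 were tested. By edgeR 13 fell and none rose (50% and 0%, against 2.54% and 1.47% of all tested genes). The median log2 fold change was −0.69. None of cfd, cfp and CLU fell, so leaving them out raised the share from 44.8% and moved the median from −0.50. CLU, the 1 tested member with all knockout pools higher, was left aside by choice, while c7a and c7b were kept. The shares therefore depend on this choice. The summed level of the 28 members was 1344, 1198 and 1211 CPM for controls 1, 2 and 3, and 820, 748 and 708 CPM for the knockouts. The knockout pools thus held 60.7% of the control mean, with no overlap. Over all 34 members they held 63.8%, also with no overlap.

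The C1q molecule is built from 3 kinds of chain, coded by the neighbouring genes c1qa, c1qb and c1qc. All of them were close to the detection limit. Reads of c1qa (ENSDARG00000044613) numbered 4, 5 and 7 for controls 1, 2 and 3, and 13, 8 and 16 for the knockouts. Those of c1qb (ENSDARG00000044612) numbered 6, 0 and 12 against 10, 15 and 9, and those of c1qc (ENSDARG00000095627) 0, 10 and 3 against 22, 3 and 21. A count of 0 allows up to 3 reads, or 0.152 CPM in control pool 1 and 0.164 CPM in control pool 2. Knockout pools were all higher for c1qa and overlapped the controls for the other two.

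Over the groups the reads were 16 against 37 for c1qa, 18 against 34 for c1qb and 13 against 46 for c1qc. The scaled ratios were 2.29 (95% exact interval 1.24 to 4.41), 1.87 (1.03 to 3.52) and 3.51 (1.86 to 7.07), and these intervals cover counting error only. When the filter on low counts was left out, edgeR gave adjusted p-values of 0.246, 0.602 and 0.354 for them, with unadjusted values of 0.0247, 0.207 and 0.0533. None passed. The counting intervals lay above 1, while the reads of c1qb and c1qc varied between pools of the same group, from 0 to 12 among controls for c1qb and from 3 to 22 among knockouts for c1qc. Summed C1q reads were 10, 15 and 22 among controls and 45, 26 and 46 among knockouts. The log2 ratio of the liver-made sum to the C1q sum was 11.4, 10.5 and 10.0 for controls 1, 2 and 3, and 8.46, 9.10 and 8.19 for the knockouts. All knockout pools were lower in this ratio, which was given no test because it is a score over chosen genes.

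**Figure D5:**
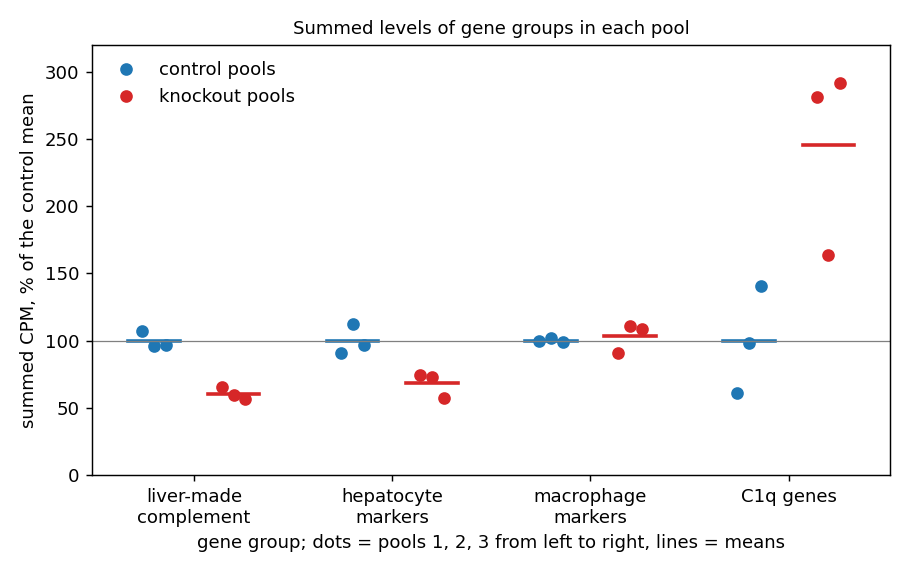
Summed CPM of 4 gene groups (x axis) in each pool as a percentage of the control mean (y axis from 0), with control pools in blue, knockout pools in red, pools 1, 2 and 3 from left to right and lines at the means. Knockout pools stand at 60.7% for liver-made complement and 68.2% for hepatocyte markers on average, near the controls for macrophage markers (103%), and at 164% to 291% for the C1q genes, which rest on 10 to 46 reads a pool. The hepatocyte and macrophage sums are weighted to abundant genes, such as apobb.1 and cd68.

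Markers of the liver fell with the complement genes. Of 39 tested hepatocyte markers 23 fell and 2 rose (59.0% and 5.13%, against 2.54% and 1.47% of all tested genes). Their median log2 fold change was −0.84, and their summed level ran from 15732 to 19387 CPM among controls and from 9913 to 12832 CPM among knockouts. The defining markers fabp10a and tfa fell with log2 fold changes of −2.41 and −2.94 (edgeR adjusted p = 1.27e-05 and 4.64e-06), and ahsg2 was the 1 marker with 0 reads among knockouts. It entered the test through the 351 reads of the controls and is counted among the 23. Its fold is only a bound, at least 118-fold lower with a floor of 3 reads over the knockouts. The liver-made complement sum was 8.54%, 6.18% and 7.21% of the hepatocyte sum for controls 1, 2 and 3, and 6.39%, 5.90% and 7.15% for the knockouts, so these shares overlapped. The hepatocyte sum is weighted to a few abundant markers that did not change alike. On average apobb.1 read 5510 CPM among controls and 5570 CPM among knockouts, and tfa 2091 and 273 CPM. The whole sums averaged 17306 and 11805 CPM, so the shares depend on the markers listed. The part of the hepatocyte markers in the complement result was not tested.

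Of 25 tested macrophage markers 1 rose and none fell by edgeR (also by DESeq2 and limma-voom, 0 lower at an unadjusted p under 0.05, and 4 were higher at that level), with a median log2 fold change of 0.18. The gene that rose was 1 of several that carry the symbol MFAP4 (ENSDARG00000088745), from 4.16 ± 0.530 CPM to 7.05 ± 0.284 CPM. Of the other tested copies, ENSDARG00000089667 (15 reads summed over controls, 48 over knockouts) and ENSDARG00000090783 had no overlap. Their log2 differences of 1.64 and 0.32 did not pass (edgeR adjusted p = 0.101 and 0.322). The first of these copies entered the test through the reads of the knockouts. It is 1 of the 4 markers higher at an unadjusted p under 0.05. ENSDARG00000038683 (0.12), ENSDARG00000090557 (0.27) and ENSDARG00000116066 (−0.27) overlapped. Knockout pools were all higher in 5 of the 25 markers, with ENSDARG00000089667 among them, and all lower in 0 (10.8% and 10.6% of all tested genes). The summed level of the macrophage markers was 345 to 355 CPM among controls and 317 to 386 CPM among knockouts. Of this sum cd68 alone held 134 CPM among controls and 130 CPM among knockouts on average. The receptor gene csf1ra read 10.7 ± 0.321 CPM and 13.4 ± 1.07 CPM (log2 difference 0.32, edgeR adjusted p = 0.201), and mpeg1.1 matched no gene by symbol. The C1q sum was 0.146%, 0.230% and 0.338% of the macrophage sum among controls and 0.737%, 0.352% and 0.640% among knockouts, and its dependence on the number of macrophages was not tested. Of 14 tested neutrophil markers none passed in either direction by edgeR, against 2.54% lower and 1.47% higher among all tested genes. DESeq2 and limma-voom also gave 0, and 1 was lower and 2 were higher at an unadjusted p under 0.05.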

How the data were processed

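Per the labels, the libraries were poly(A)-selected, non-stranded and paired-end (100 bases, DNBSEQ), from 3 mating sets. The deposited values are estimated counts per Ensembl gene, stored as whole numbers, so rounding changed nothing. The submitters' processing notes name Salmon, Trim Galore, FastQC and DESeq2 and the build GRCz11. The role and version of each tool are not given in the sources used here.

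An ID-to-symbol table named 23598 of 25859 genes, and symbols are printed as it gives them. Genes passing filterByExpr were normalised by TMM (trimmed mean of M-values) and compared with edgeR 4.0.16 (quasi-likelihood test, genotype as the only term, R 4.3.3), with Benjamini-Hochberg adjustment over all tested genes and a threshold of 0.05. The SE is the absolute log2 fold change over the root of F. Nothing states that the pools of a group come from separate parents, so p-values measure the spread between these pools. Members and lists were chosen with earlier results of these data known. Every member is reported, with the genes past the threshold in other lists (for hepatocytes, the defining markers alone) and the defining macrophage markers. C3AR1, c5ar1, CPN1, the second VTN copy, ahsg2, apobb.1, cd68 and 1 untested cpn1 gene were named after their values were seen, and the within-pool ratios were also chosen then. The names of the hepatocyte markers that rose are not reported here.

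Alternatives were RLE and upper-quartile scaling, an adjusted p of 0.01, no filter, at least 1 CPM in 3 pools, each pool left out, a replicate block, DESeq2 1.42.0 and limma-voom (limma 3.58.1). Counting intervals and floors (3 reads) cover counting error only. Without strand, overlapping genes cannot be told apart.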

Additional observations from a re-analysis of the deposited data

How the results depend on the processing

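Of the 13 complement genes that fell, 8 kept their call in all 14 alternatives: c3a.2, c3a.3, c3b.2, c5, c8b, c9, cfhl1 and cfhl2. The number that fell was 8 to 13 when 1 pool was left out and 8 at an adjusted p of 0.01, and the number that rose was 0 in every alternative. Over all genes 866 passed, with 444 at an adjusted p of 0.01 and 549 to 981 when 1 pool was left out. Estimates that changed sign belonged to genes that did not pass. With 1 pool left out in turn MASP2 ran from −0.25 to 0.016, c7b from −0.037 to 0.54, serping1 from −0.025 to 0.23, cfbl from −0.27 to 0.069 and cfp from −0.18 to 0.16 (log2). The cause was not tested. With the replicate number as a block 12 members fell and c3b.1 did not pass (edgeR adjusted p = 0.0863). Over all genes 738 passed in that fit. Deviations of same-numbered pools correlated at −0.20, 0.10 and −0.07 across genes, and those of differently numbered pools at −0.17 to 0.22. These values cannot settle whether the pools are paired. The labels do not say what the numbers mark, so they were not taken as pairs. Over the members tested in each fit, the median ran from −0.47 to −0.29 with 1 pool left out (log2, −0.50 for the 29 tested with all pools). The filter was applied anew in these fits, so the sets of members differ and the medians are not directly comparable. With all pools, the C1q genes, c3a.5 and cfhl3 had too few reads to pass the filter.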

Other observations

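Among 26 written genes of acute phase signalling and liver transcription factors, 22 matched and 20 were tested. Of the 20, 1 fell and 1 rose (5.00% each, against 2.54% and 1.47% of all tested genes), and the median log2 fold change was −0.07. The gene that fell was HNF4A, a nuclear receptor that controls many hepatocyte genes, at 36.4, 41.6 and 37.5 CPM for controls 1, 2 and 3, and 22.9, 24.1 and 23.4 CPM for the knockouts (log2 fold change −0.71, SE 0.10, edgeR adjusted p = 0.00217). The gene that rose was CEBPB, a factor that drives acute phase genes in mammals, at 23.5, 26.4 and 23.1 CPM against 36.4, 44.0 and 37.5 CPM (log2 fold change 0.69, SE 0.11, edgeR adjusted p = 0.00568).

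In 5 of the 29 tested complement genes, namely c3a.2, c4, c4b, cfb and c7a, pool 2 was the lowest pool of the controls and also of the knockouts (17.2%, against 9.17% of all tested genes). These genes and the next were picked after their values were seen. The gene with the ID ENSDARG00000096728, which carries the symbol cpn1, had 26, 0 and 48 reads in knockout pools 1, 2 and 3 and 0 in every control pool. With reads in knockout pools 1 and 3 alone, it did not pass the filter and was not tested.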
